A study of Lens culinaris with 20 samples.

Results

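MicroRNAs of young reproductive growth were compared with those of young vegetative growth in lentil (Lens culinaris), a grain legume, as flower buds (3 libraries) against shoots (3 libraries). These 6 libraries were taken by their organ label from a series of 20 small RNA libraries of 7 organs. The sources used here give the organ only, with no cultivar, age or growth condition for either group. RNA in both groups came from pooled samples, extracted with TRI Reagent and the Spectrum Plant Total RNA Kit and sequenced as Illumina TruSeq small RNA libraries. Nothing says whether the libraries of an organ are separate plants or separate pools, and a p-value here measures library-to-library spread, which could be technical in origin. No miRNA was set as a defining marker of either organ, so the organ labels could not be checked in that way. Mature miRNA entries with the same sequence were joined to 1 feature, which gave 1464 features, of which 323 passed a filter on low reads across the 20 libraries. Their levels are given as CPM, the reads of a feature per 1000000 of the scaled library total.

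Plant miRNAs are cut from hairpin precursors, mostly as short duplexes from which 1 strand is loaded into an Argonaute protein. They pair along most of their length with messenger RNAs, which are then cleaved or not translated, and many of the old families act on transcription factors that shape leaves, meristems and floral organs. In Arabidopsis, miR156 holds plants in the juvenile phase through SPL transcription factors and falls as they mature, while miR172, which acts on AP2-like factors, rises and takes part in flowering and floral organ identity. Other families answer to copper, phosphate and sulfate supply. Target roles given here are background from other plants and were not measured.

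The mature sequences of the features on which the results turn are given from the deposited table, 5′ to 3′ with T for U, and with the seed (bases 2 to 8) in capitals. They are grouped by family, since members of a family differ in seed, in length or in arm, and these members did not move alike.
mtr-miR156b-5p: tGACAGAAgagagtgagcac
ath-miR156a-5p_L+1: tTGACAGAagagagtgagcac
mtr-miR156e: tTGACAGAagatagagagcac
gma-miR156b_L+1R-1: tTGACAGAagagagagagcac
mtr-miR156c-3p_L-1_1ss5TC: gCTCACTCtctatctgtcacc
ath-miR172a: aGAATCTTgatgatgctgcat
ath-miR172c_1ss7TC: aGAATCCTgatgatgctgcag
aly-miR172b-5p_1ss7CG: gCAGCAGCatcaagattcaca
mtr-miR398a-5p_L-1R+1_1ss8CA: gAGTGAAActgagaacacaaga
ath-miR398a-3p_L+1R-1: tTGTGTTCtcaggtcacccct
mtr-miR2119_1ss13GC: tCAAAGGGaggtctggagtag
gma-miR391-5p_R-1_1ss20TC: tACGCAGGagagatgacgccg
ath-miR160a-3p_2ss6TC21AG: gCGTACGAggagccatgcatg
mtr-miR160a: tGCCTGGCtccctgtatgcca
ath-miR167d_1ss22GA: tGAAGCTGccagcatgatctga
ath-miR167a-5p_R+1_1ss21AT: tGAAGCTGccagcatgatctta
gma-miR319d: tGGACTGAaggggagctccttc
gma-miR319f_1ss17TC: tTGGACTGaaggggcccctt
ath-miR319c_L+1R-1: tTTGGACTgaagggagctcct
mtr-miR319c-5p_L-1R+1: gAGTTCCTtgcagcccaaagc
gma-miR171k-3p: tTGAGCCGcgccaatatcact
ath-miR170-5p: tATTGGCCtggttcactcaga
mtr-miR166a: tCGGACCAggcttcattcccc
mtr-miR159a: tTTGGATTgaagggagctcta
ath-miR164a: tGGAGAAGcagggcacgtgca
mtr-miR396a-5p: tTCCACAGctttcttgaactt

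Of the 323 features tested, 71 (22%) differed between the organs, with 40 (12.4%) higher and 31 (9.6%) lower in flower buds, by edgeR's quasi-likelihood F-test. A call needed a log2 fold change of 1 or more in either direction and an adjusted p (Benjamini-Hochberg, all features) below 0.05. At an unadjusted p under 0.05 there were 112. The filter was set across the whole series, so 49 of the 323 were listed at 0 in all 6 libraries. Among the other 274, 25.9% were called, 14.6% higher and 11.3% lower. The 3 flower bud libraries lay above the 3 shoot libraries for 78 features (24.1%) and below them for 48 (14.9%). Summed to families by miRNA number, 24 of 54 families (44.4%) were called, 15 higher (27.8%) and 9 lower (16.7%), and 27 had an unadjusted p under 0.05. All flower bud libraries lay above all shoot libraries for 21 families (38.9%) and below them for 13 (24.1%). In bulk tissue, fewer cells of a type that makes a miRNA and less of it per cell cannot be told apart.

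**Figure D1:**
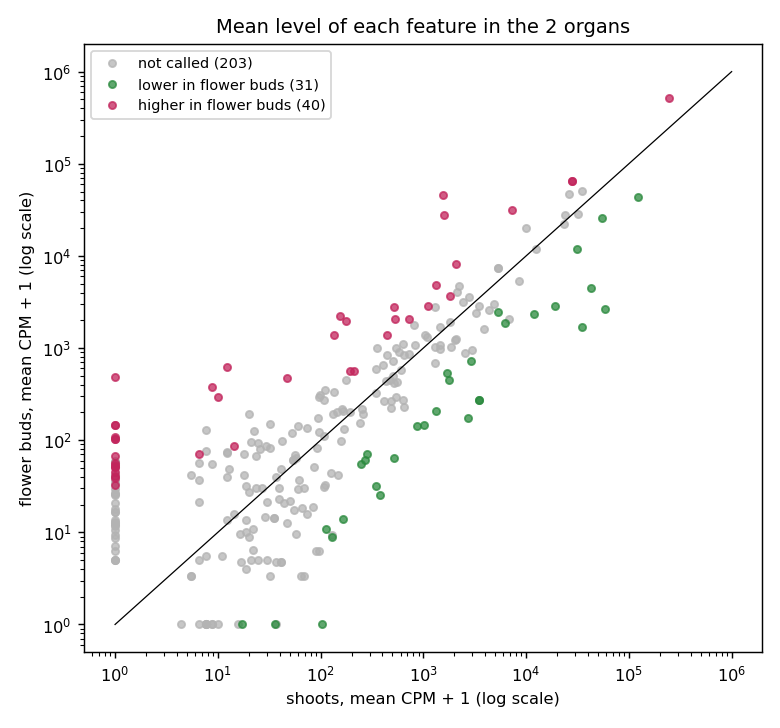
Mean level in shoots (x axis) and in flower buds (y axis) of the 274 tested features above 0 in at least 1 of the 6 libraries, as CPM + 1 on log scales, with the line of equal levels. The 40 features called higher in flower buds lie above the line, many of them at the left edge where shoots are listed at 0, and the 31 called lower lie below it.

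Reads summed over the 1464 features totalled 105279, 141117 and 326712 in shoots 1 to 3 and 197952, 538904 and 600487 in flower buds 1 to 3. Features with identical counts enter these totals, and the shares of reads taken from them, more than once. A value of 0 stands for fewer than about 5 reads, which equalled 44.2, 33.6 and 16.8 CPM in the shoot libraries and 23.8, 11.3 and 12.0 CPM in the flower bud libraries, so a rare miRNA was harder to see in shoots. Replicates correlated at Spearman 0.899 to 0.938 within shoots and 0.911 to 0.957 within flower buds, against 0.774 to 0.803 between the organs. The balance of higher and lower calls depended on scaling: with the authors' normalization factors 61 features were higher and 17 lower (78.2% of calls higher, against 56.3%). TMM itself moved with the rounding of expected counts: with a fraction of 0.5 rounded to the even number, 57 features were higher and 21 lower, with 60 of the 71 calls kept. The authors' factors moved the median family by 0.59 on the log2 scale, and scaling to library size alone moved it by -0.23. Under TMM, DESeq2's size factors, library size and the authors' factors alike, 53 of the 71 features (36 higher, 17 lower) and 17 of the 24 families (11 higher, 6 lower) were called. When any 1 of the 6 libraries was left out, 18 of the 40 higher and 11 of the 31 lower features were still called each time, as were 10 of 15 and 7 of 9 families.

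**Figure D2:**
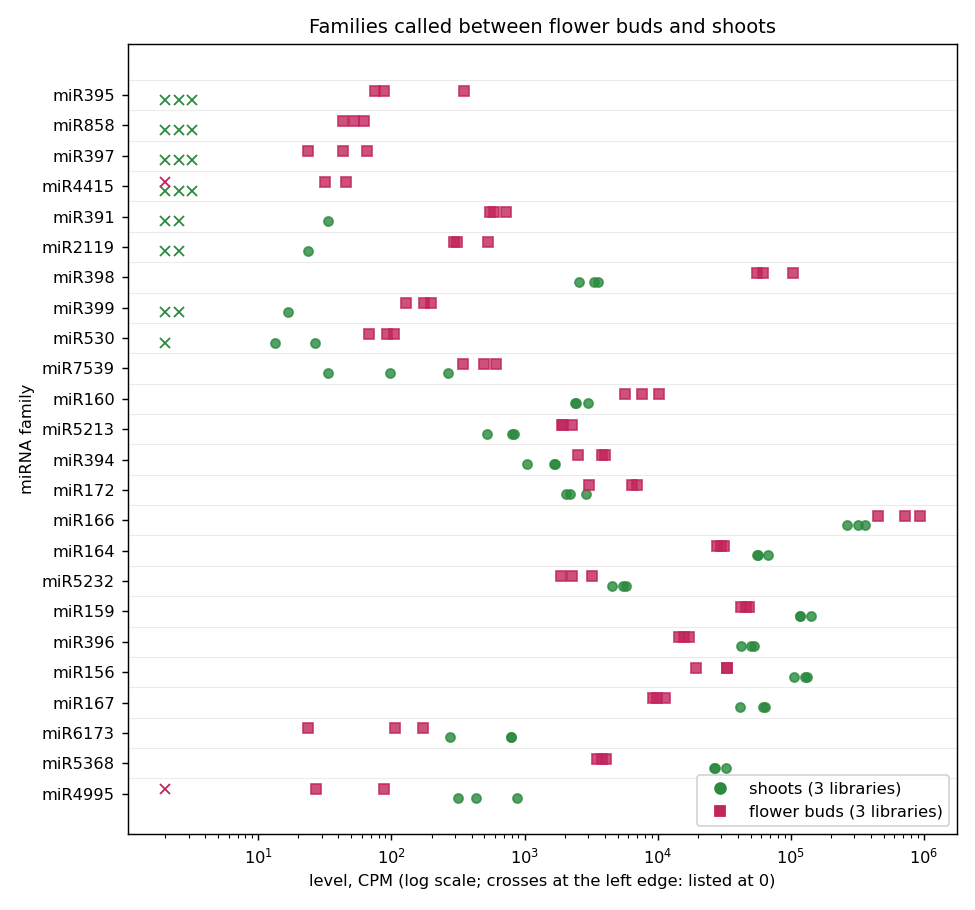
Level of each of the 24 called families in the 3 shoot (circles) and 3 flower bud (squares) libraries, in CPM on a log scale, with libraries listed at 0 as crosses at the left edge. Families are ordered by fitted change, from miR395 to miR4995. The groups overlap only for miR4415, which was listed at 0 in flower buds 1.

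The phase change families moved in opposite directions. miR156 stood at 129064, 104995 and 132471 CPM in shoots 1 to 3 and 19338, 33255 and 33008 CPM in flower buds 1 to 3. Every flower bud library lay below every shoot library (log2 fold change -2.10 ± 0.40, adjusted p = 0.000246). miR172 stood at 2060.1, 2202 and 2899 CPM in shoots 1 to 3 and 3061, 6383 and 6972 CPM in flower buds 1 to 3. It was higher in flower buds (log2 fold change 1.20 ± 0.40, adjusted p = 0.018), although flower buds 1 came close to shoots 3, and with library size alone its change was 0.89 and not called. Both families thus passed, 1 in each direction, beside 44.4% of all families called.

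Within miR156 the fall was carried by a few forms. The 20 nt form mtr-miR156b-5p fell from 70478, 46789.6 and 60120.4 CPM in shoots to 1692, 3199.6 and 3006 CPM in flower buds (log2 fold change -4.49 ± 0.48, adjusted p = 2.81e-06). The 21 nt form ath-miR156a-5p_L+1 fell from 32211, 32439.8 and 39567 CPM to 1221, 2068 and 1847 CPM (-4.34 ± 0.48, adjusted p = 2.81e-06). The opposite strand of the first, mtr-miR156c-3p_L-1_1ss5TC, fell with them, from 2511, 2337 and 3326 CPM to 223, 170.1 and 125 CPM (-3.99 ± 0.57). In contrast, mtr-miR156e stood at 22299, 21071 and 26324 CPM in shoots 1 to 3 and 14015, 25930.2 and 25895 CPM in flower buds 1 to 3, where the groups overlapped (-0.08 ± 0.37, adjusted p = 1; with the authors' factors the sign turned, to 0.45). As a result mtr-miR156e, the third form in shoots, was the main miR156 of flower buds. Its sequence is that of ath-miR157a-5p_R+1 without the last T, and miR157 names were merged into miR156 here. mtr-miR156e shares its TGACAGA seed with ath-miR156a-5p_L+1, and of the 8 tested features with that seed 1 was called lower. Of 20 tested miR156 features 3 were lower and 0 higher, a share near the 9.6% lower among all features.

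Of miR172, 3 of 6 tested features were higher, against 12.4% of all features, and 0 lower. With 1 of the 6 libraries left out 2 to 5 were higher. Of the 3, ath-miR172a_1ss21TG lost its call without flower buds 2, shoots 1 or shoots 2 (adjusted p 0.0521 to 0.0691). The main form ath-miR172a stood at 1892, 1934 and 2552 CPM in shoots 1 to 3 and 1963, 4848 and 5489 CPM in flower buds 1 to 3 and did not pass (0.95 ± 0.46, adjusted p = 0.146). Both other called forms were listed at 0 in all 3 shoot libraries. The 5′ arm product aly-miR172b-5p_1ss7CG reached 579.8, 419.5 and 467 CPM in flower buds. Their mean was at least 15.5-fold above the mean limit of 5 reads per shoot library, and later bounds are of the same kind. The 3′ form ath-miR172c_1ss7TC reached 128, 107 and 83.8 CPM, at least 3.37-fold above that limit.

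Among the 5 auxin and trans-acting siRNA families 1 rose, 2 fell and 2 did not pass, beside 44.4% of all families called, with a median log2 fold change of 0.24 against 0.21 over all 54 families. miR160, which targets auxin response factors, rose from 2431, 2404 and 2999.6 CPM in shoots to 5708, 7615 and 10212 CPM in flower buds (log2 fold change 1.59 ± 0.44, adjusted p = 0.00601). The rise was largest for its 3′ arm product ath-miR160a-3p_2ss6TC21AG, at 212, 94.01 and 151 CPM in shoots and 2775, 1506 and 2378 CPM in flower buds (3.87 ± 0.76, adjusted p = 0.00191). The usual 5′ form mtr-miR160a stood at 2042, 2014 and 2546 CPM in shoots 1 to 3 and 2652, 5147 and 6509.7 CPM in flower buds 1 to 3, without overlap but not past the threshold (1.12 ± 0.42, adjusted p = 0.0621). A rarer form with the same GCCTGGC seed, csi-miR160c-5p_1ss19CT, stood at 44.2, 33.6 and 60.5 CPM in shoots 1 to 3 and 61.8, 589.6 and 764 CPM in flower buds 1 to 3. Flower buds 1 lay at the shoot level for that form, and its call (3.33 ± 1.11, adjusted p = 0.0399) was lost when flower buds 2, flower buds 3 or any shoot library was left out (adjusted p 0.0557 to 0.0876).

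miR167 targets another set of auxin response factors, which in Arabidopsis act in stamens and gynoecia. It fell from 41618, 62314 and 63584 CPM to 11449, 9887 and 9307 CPM (log2 fold change -2.45 ± 0.36, adjusted p = 1.54e-05). Its main 22 nt form ath-miR167d_1ss22GA fell from 29638, 49053 and 48424 CPM to 5931, 3803 and 3715 CPM (-3.24 ± 0.42, adjusted p = 2.75e-05). The other 22 nt form, ath-miR167a-5p_R+1_1ss21AT, has the same seed. It stood at 3042, 4949 and 5058 CPM in shoots 1 to 3 and 3274, 2397 and 2167 CPM in flower buds 1 to 3 and did not pass (-0.74 ± 0.39). Of 8 tested miR167 features 4 were lower, against 9.6% of all features, and 0 higher, and 1 to 3 were lower with 1 of the 6 libraries left out. The 3′ product csi-miR167c-3p, at 168, 168 and 158 CPM in shoots and 0, 24.9 and 14.4 CPM in flower buds, was among them (-3.54 ± 1.20, adjusted p = 0.0407), but its call was lost on leaving out any of the 6 libraries (adjusted p 0.0612 to 0.139).

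miR164, which targets NAC factors that set organ boundaries, stood at 56358, 56009 and 67434 CPM in shoots 1 to 3 and 31295, 28141 and 29732 CPM in flower buds 1 to 3. Its fall lay at the edge of the fold threshold (log2 fold change -1.01 ± 0.31, adjusted p = 0.0127) and dropped under it on leaving out any 1 library (-0.90 to -0.72) and, among others, with the authors' factors (-0.45). Its main form ath-miR164a stood at 50938, 50704 and 61499 CPM in shoots 1 to 3 and 27449.9, 24259 and 25715 CPM in flower buds 1 to 3 (-1.08 ± 0.29, adjusted p = 0.0146), with the same losses. miR390, which starts trans-acting siRNAs against auxin response factors, stood at 25226, 23663 and 29179 CPM in shoots 1 to 3 and 38238, 50239 and 51619.9 CPM in flower buds 1 to 3, almost all of it as ath-miR390a-5p. Every flower bud library was higher, but the change was under the fold threshold (0.84 ± 0.33, adjusted p = 0.0363). It passed with the authors' factors (1.39) and, among others, when any flower bud library was left out (1.02 to 1.14). miR393, which targets auxin receptors, stood at 341 ± 63.1 CPM in shoots and 402 ± 11.7 CPM in flower buds (mean ± SD, n = 3 each) and did not pass (0.24 ± 0.57).

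Of 8 families that act on developmental transcription factors, miR164 included, 2 rose, 3 fell and 3 did not pass, beside 44.4% of all families called (median log2 fold change -0.18). With 1 of the 6 libraries left out 1 to 4 rose and 2 fell, as miR164 was then not called. miR166 restricts HD-ZIP III factors, which set the upper side of leaves and maintain meristems. Its main form mtr-miR166a was the most abundant miRNA of both organs, with 22.3% to 26.0% of reads in the shoot libraries and 38.5% to 46.4% in the flower bud libraries. It rose from 207464, 246216 and 276443 CPM to 362067, 529960.0 and 666678 CPM (log2 fold change 1.09 ± 0.29, adjusted p = 0.0122), and with library size alone the change was 0.80 and not called. Its 5′ partner mtr-miR166e-5p rose further, from 6375, 6909.7 and 8572 CPM to 13635, 36332 and 44719.8 CPM (2.11 ± 0.52, adjusted p = 0.0083). Of 17 tested miR166 features 8 were higher, against 12.4% of all features, and 0 lower. With 1 of the 6 libraries left out 6 to 10 were higher. They include ath-miR166a-3p_L+2R-2_1 at 21848, 30479 and 31997 CPM in shoots 1 to 3 and 30106, 68298 and 97983 CPM in flower buds 1 to 3 (1.22 ± 0.41, adjusted p = 0.0399, lost without flower buds 3, with library size alone at 0.88 and with the replicate block at adjusted p = 0.0531). Its counts repeat in a second feature of the 8, so that the family sum (1.16 ± 0.33) counts those reads more than once.

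miR159, which targets GAMYB factors of anther development, fell. Its main form mtr-miR159a went from 116897, 116021 and 138861 CPM to 41156, 47030.4 and 44109 CPM (log2 fold change -1.49 ± 0.37, adjusted p = 0.0105). With the authors' factors the change was -0.93 and not called. miR396, which targets growth-regulating factors, fell from 42414, 50019.5 and 53186 CPM to 17279.8, 15651 and 14399 CPM (-1.62 ± 0.41, adjusted p = 0.00289). Its 5′ form mtr-miR396a-5p fell by more (-2.35 ± 0.53) than the 3′ form mtr-miR396a-3p (-1.40 ± 0.39), which was the more abundant in each of the 6 libraries. The call of mtr-miR396a-3p was lost without flower buds 2, flower buds 3, shoots 2 or shoots 3 (adjusted p 0.0550 to 0.0901). miR394, which targets an F-box gene of the shoot meristem, rose from 1662, 1041 and 1681 CPM to 2528, 3819 and 4057 CPM (1.25 ± 0.48, adjusted p = 0.0355), but not past the thresholds without shoots 2 (adjusted p = 0.0708) or with library size alone (0.97).

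The 3 families that did not pass as a whole each held members called in both directions. miR319, which targets TCP factors that limit cell division, stood at 46810.2 ± 6233 CPM in shoots and 73610.4 ± 26648 CPM in flower buds (mean ± SD, n = 3 each) (0.65 ± 0.39, adjusted p = 0.174), and its change passed with the authors' factors (1.18) and without flower buds 1 (1.09). Its main form gma-miR319f_1ss17TC overlapped between the organs, at 39647, 28639 and 35858 CPM in shoots 1 to 3 and 29184, 65947 and 57591 CPM in flower buds 1 to 3. The 22 nt gma-miR319d fell from 1432, 1914 and 2028 CPM to 304, 515 and 529 CPM (-1.99 ± 0.45, adjusted p = 0.00551), while ath-miR319c_L+1R-1 rose from 79.6, 181 and 145 CPM to 722, 1732 and 1650.2 CPM (3.33 ± 0.78, adjusted p = 0.00765). The 5′ partner of the latter, mtr-miR319c-5p_L-1R+1, was listed at 0 in all shoot libraries and at 71.3, 152 and 216 CPM in flower buds, at least 4.64-fold above the limit.

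miR171, which targets GRAS-domain factors of meristems, stood at 3513 ± 625 CPM in shoots and 6386 ± 989.8 CPM in flower buds (mean ± SD, n = 3 each) (0.86 ± 0.40, adjusted p = 0.0822) and passed with the authors' factors (1.42) and without any 1 flower bud library (1.04 to 1.17). Its 5′ product ath-miR170-5p rose from 159, 141 and 225 CPM to 1088, 2290.3 and 2584 CPM (3.49 ± 0.84, adjusted p = 0.00779), and mtr-MIR171b-p3_1ss20TC rose from 442, 449.9 and 693 CPM to 1972, 2125 and 2043 CPM (1.95 ± 0.45, adjusted p = 0.00618). The main form in shoots, gma-miR171k-3p, stood at 1892, 1477 and 2152 CPM in shoots 1 to 3 and 794, 1088 and 1199.9 CPM in flower buds 1 to 3, where all flower bud libraries were lower, and did not pass (-0.84 ± 0.41). Its 5′ partner mtr-miR171e-5p, the 1 miR171 feature called lower, stood at 221, 295 and 299 CPM in shoots 1 to 3 and 90.3, 43.1 and 47.9 CPM in flower buds 1 to 3 (-2.19 ± 0.65, adjusted p = 0.0238). That call was lost without flower buds 2, flower buds 3, shoots 2 or shoots 3 (adjusted p 0.067 to 0.0904). miR169, which targets NF-YA factors, stood at 951 ± 188 CPM in shoots and 409 ± 119 CPM in flower buds (mean ± SD, n = 3 each) (-1.22 ± 0.61, adjusted p = 0.106) and was called lower with library size alone (-1.49) and with DESeq2's size factors (-1.30). Its main form mtr-miR169k_R+1_1ss5CT fell from 689.7, 927 and 989 CPM to 61.8, 195 and 170.0 CPM (-2.59 ± 0.59, adjusted p = 0.00618), while 2 miR169 features that were listed at 0 in shoots were called higher.

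In the copper group 2 of 3 families rose and 0 fell, beside 27.8% higher and 16.7% lower of all families. The median log2 fold change was 4.56, or 1.13 with the family at 0 in shoots taken at its bound. miR398 targets copper/zinc superoxide dismutases. It stood at 2573, 3310.5 and 3558 CPM in shoots 1 to 3 and 104087, 56205 and 62093 CPM in flower buds 1 to 3 (log2 fold change 4.56 ± 0.68, adjusted p = 1.54e-05). Both arms of its hairpin rose. On the 5′ side, mtr-miR398a-5p_L-1R+1_1ss8CA went from 1149, 1753 and 1732 CPM to 73596, 30164 and 34802 CPM (4.90 ± 1.06, adjusted p = 0.00434). On the 3′ side, ath-miR398a-3p_L+1R-1, the strand known to act on targets, went from 1424, 1558 and 1799 CPM to 30068, 25733 and 26963 CPM (4.11 ± 0.57, adjusted p = 5.51e-05). Its shorter form ath-miR398a-3p_R-1 was above 0 in shoots 3 only (0, 0 and 26.9 CPM) and reached 356, 245 and 283 CPM in flower buds (4.62 ± 1.04, adjusted p = 0.00618).

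miR397, which targets laccases, was listed at 0 in shoots and at 23.8, 65.8 and 43.1 CPM in flower buds, at least 1.40-fold above the limit (adjusted p = 0.0139), and DESeq2's Wald test did not call it (adjusted p = 0.0834). miR408, which targets copper proteins of the plantacyanin kind, stood at 672, 792 and 962 CPM in shoots 1 to 3 and 1169, 2073 and 2065 CPM in flower buds 1 to 3. All flower bud libraries were higher, but it did not pass (1.13 ± 0.56, adjusted p = 0.105), except with the authors' factors (1.67), in a fit of the 6 libraries alone (1.30) and without flower buds 1 (1.54), among others. miR2119, a legume miRNA that in common bean shares a transcript with miR398 and targets an alcohol dehydrogenase, was above 0 in shoots 3 only (0, 0 and 23.5 CPM) and reached 532, 297 and 309 CPM in flower buds (5.07 ± 1.26, adjusted p = 0.00289). Without shoots 3 it was at 0 in shoots, and the flower bud level was at least 9.76-fold above the limit.

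Both tested families of phosphate and sulfate supply rose, beside 27.8% of all families, and miR827 had too few reads for the test. miR399, which acts on the ubiquitin-conjugating enzyme PHO2 that limits phosphate uptake, was above 0 in shoots 3 only (0, 0 and 16.8 CPM) and reached 176, 197 and 129 CPM in flower buds (log2 fold change 4.33 ± 0.96, adjusted p = 0.00126, or at least 4.31-fold without shoots 3). miR395, which targets ATP sulfurylases and a sulfate transporter, was listed at 0 in shoots and stood at 352, 74.8 and 88.6 CPM in flower buds, at least 5.45-fold above the limit (adjusted p = 0.00289). Flower buds 1 held most of it, and the mean fell from 172 to 81.7 CPM without that library.

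miR162 and miR168, which target the Dicer and Argonaute proteins of the miRNA pathway itself, did not pass. miR162 stood at 1469 ± 277 CPM in shoots and 2342 ± 985 CPM in flower buds (mean ± SD, n = 3 each), and miR168 at 15235 ± 1403 CPM in shoots and 15505 ± 4501 CPM in flower buds (mean ± SD, n = 3 each). Among the triggers of phased siRNAs 2 of 6 were tested as families. miR482, which targets NB-LRR resistance genes, overlapped at 23775 ± 10467 CPM in shoots and 27599.7 ± 4585 CPM in flower buds (mean ± SD, n = 3 each), with shoots 1 lowest at 11689 CPM. miR2118 was too rare as a family. Its 1 tested feature, osa-MIR2118e-p3_1ss13TA of 18 nt, stood at 35.4, 0 and 13.5 CPM in shoots 1 to 3 and 0, 0 and 0 CPM in flower buds 1 to 3. That feature was called lower on 4, 0 and 4 shoot reads, but not without shoots 1, shoots 3 or any 1 flower bud library (adjusted p 0.0795 to 0.142). miR5213 rose from 522, 839 and 804 CPM to 2281, 1918 and 1930.4 CPM (1.50 ± 0.50, adjusted p = 0.0178). Of 6 legume families 1 rose, 1 fell and 4 did not pass, beside 44.4% of all families called. miR2119 rose, miR5232 fell from 5499.6, 4579.6 and 5781 CPM to 3222, 2265 and 1875 CPM (-1.11 ± 0.36, adjusted p = 0.0163), and miR1511, miR1514, miR4414 and miR5559 did not pass. The miR5232 call was lost without flower buds 2, flower buds 3, shoots 1 or shoots 3 (adjusted p 0.0608 to 0.138) and, among others, with the authors' factors (-0.52). The miR1511 sum was nearly level, at 17533 ± 2008 CPM in shoots and 17204 ± 2542 CPM in flower buds (mean ± SD, n = 3 each). However, gma-miR1511_R+1_1 and gma-miR1511_R+1_2 have the same counts, so the sum holds these reads more than once. Each had 30.7% ± 5.32 of the sum in shoots and 43.5% ± 2.68 in flower buds. The 18 nt lja-miR1511-3p_R-6 went from 37.7% ± 10.8 to 11.6% ± 5.27.

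miR858, which targets MYB factors of flavonoid synthesis, was listed at 0 in shoots and at 61.8, 43.1 and 52.7 CPM in flower buds, at least 1.67-fold above the limit (adjusted p = 0.0178, or 0.0512 without shoots 3 and 0.108 by DESeq2's Wald test). miR530 stood at 0, 26.9 and 13.5 CPM in shoots 1 to 3 and 105, 68.03 and 93.4 CPM in flower buds 1 to 3 (2.61 ± 0.91, adjusted p = 0.0226, or 0.0700 without shoots 3). Both tested families of the flower and secondary metabolism list were called higher, beside 27.8% of all families, but neither was without shoots 3. miR828, miR529 and miR535 had too few reads for the test.

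Other families outside these lists were called too. miR391, a relative of miR390, was above 0 in shoots 3 only (0, 0 and 33.6 CPM) and stood at 727, 587 and 553 CPM in flower buds (log2 fold change 5.34 ± 0.96, adjusted p = 0.000165, or at least 16.0-fold without shoots 3). miR7539 rose (1.92 ± 0.73, lost without shoots 2 or shoots 3 and with library size alone, and its shoot mean of 132 CPM was 65.5 without shoots 1). miR4415 rose from 0 to 0, 31.7 and 45.5 CPM, a mean under the limit of 5 reads per shoot library, so no fold is given, and the call was lost without flower buds 2, flower buds 3, shoots 2 or shoots 3. miR5368 fell from 27100.1, 26725 and 32404 CPM to 3797, 3481 and 4103 CPM (-2.92 ± 0.50, adjusted p = 7.11e-05). Its named feature gma-MIR5368-p3_1ss15CA_2, a 23 nt sequence whose counts repeat in 1 other feature, fell from 3510.2, 3203 and 3800.0 CPM to 219, 259 and 340.1 CPM (-3.68 ± 0.54).

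miR4995 stood at 433, 316 and 871 CPM in shoots 1 to 3 and 0, 27.2 and 88.6 CPM in flower buds 1 to 3 (-3.73 ± 0.94, adjusted p = 0.00289). Its forms gma-MIR4995-p5 (-3.86 ± 0.98) and gma-MIR4995-p5_1ss21GA (-3.87 ± 1.26) both fell, the first not without flower buds 2 (adjusted p = 0.0612) and the second not on leaving out any of the 6 libraries. Without flower buds 3 the family mean in flower buds was 13.6 CPM instead of 38.6. miR6173 stood at 796, 275 and 794 CPM in shoots 1 to 3 and 23.8, 107 and 172 CPM in flower buds 1 to 3 (-2.59 ± 0.72, adjusted p = 0.00612), with hbr-MIR6173-p3_1ss2GA, of 19 nt, at -3.39 ± 0.85 and lost without flower buds 2 (adjusted p = 0.0596). The flower bud mean of the family was 101 CPM, or 65.2 without flower buds 3. Whether the sequences of miR5368, miR4995 and miR6173 are miRNAs or fragments of other RNAs was not tested.

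Because a share of a family's reads does not depend on how libraries are scaled, the makeup of families was compared as well. Such shares can still depend on how entries with the same sequence are joined, and they are given here for the joined features only. mtr-miR156e made up 17.3%, 20.1% and 19.9% of miR156 reads in shoots 1 to 3 and 72.5%, 77.97% and 78.5% in flower buds 1 to 3. Over the same libraries mtr-miR156b-5p went from 48.2% ± 5.58 to 9.16% ± 0.439 (SD, n = 3) and ath-miR156a-5p_L+1 from 28.6% ± 3.17 to 6.04% ± 0.392. The same kind of exchange was seen in other families. ath-miR167d_1ss22GA held 71.2%, 78.7% and 76.2% of miR167 in shoots and 51.8%, 38.5% and 39.9% in flower buds. ath-miR160a-3p_2ss6TC21AG held 8.73%, 3.91% and 5.04% of miR160 in shoots and 48.6%, 19.8% and 23.3% in flower buds, so the passenger arm was at its highest in flower buds 1. In miR171, ath-miR170-5p went from 4.95% ± 0.507 to 30.3% ± 8.42 and gma-miR171k-3p from 52.7% ± 7.90 to 16.00% ± 0.97. In miR169, mtr-miR169k_R+1_1ss5CT went from 91.5% ± 2.11 to 33.04% ± 9.21. In these cases the 3 libraries of each organ lay apart from those of the other. Of miR159, mtr-miR159a held nearly all in both organs, 98.7% ± 0.267 in shoots and 96.6% ± 0.796 in flower buds, again without overlap. With 3 libraries against 3 an exact permutation test cannot go below p = 0.1, so these shares are given without a test.

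**Figure D3:**
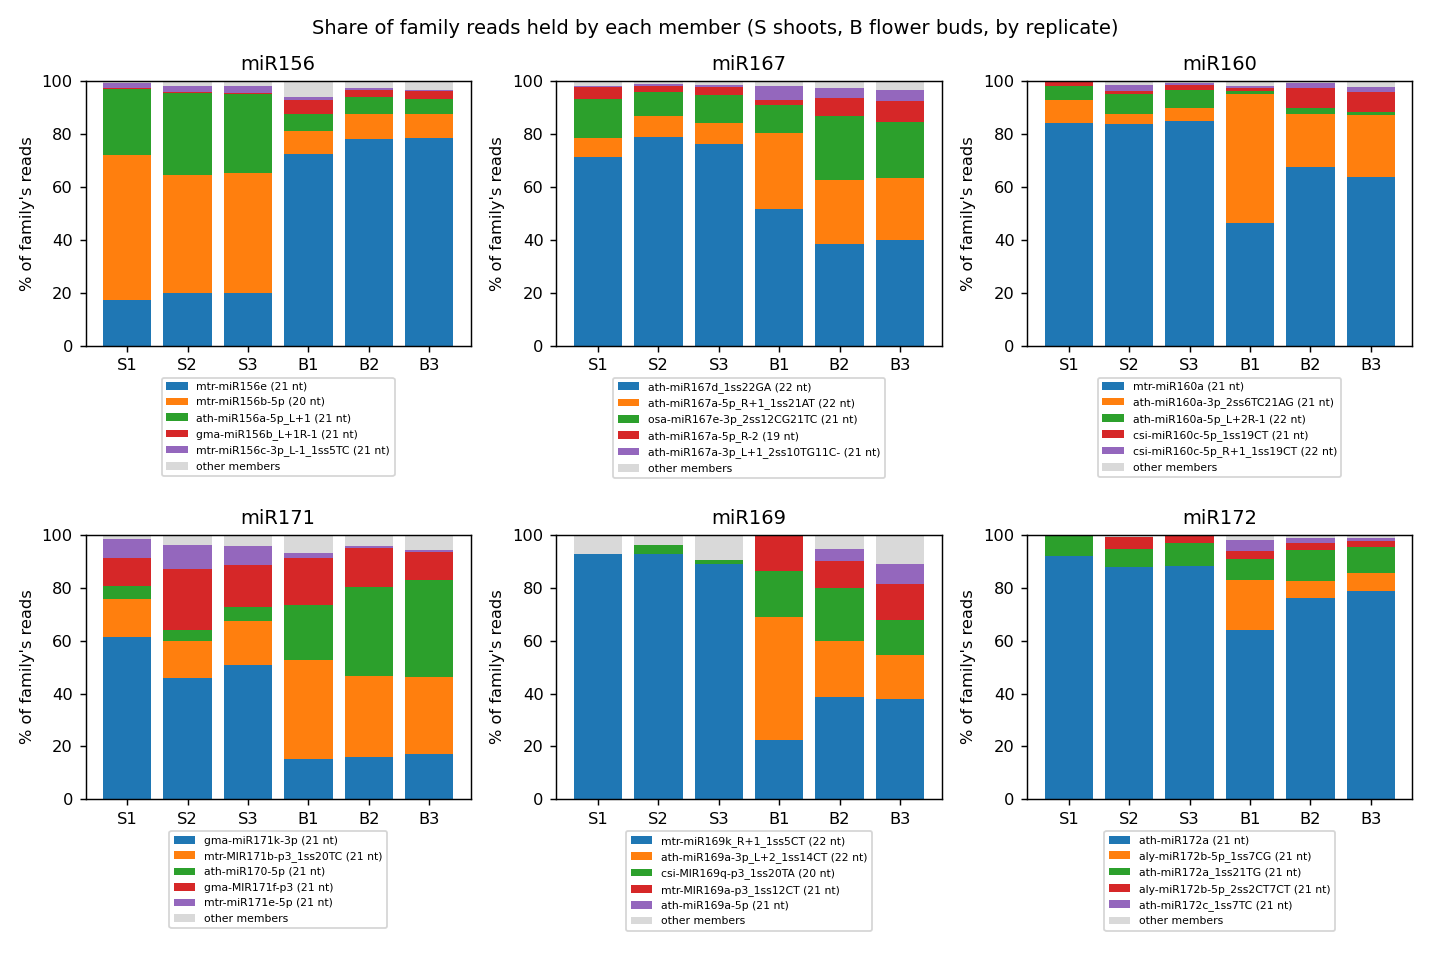
Share of family reads (y axis, %) held by the 5 most abundant members and the rest of 6 families in shoots 1 to 3 (S) and flower buds 1 to 3 (B). In miR156 the share of mtr-miR156e is 17.3% to 20.1% in shoots and 72.5% to 78.5% in flower buds.

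A set of 23 features was above 0 in all 3 flower bud libraries and listed at 0 in all 3 shoot libraries, while 1 was the other way round. The first count was 41 without shoots 3, the deepest shoot library, and 67 without flower buds 1, the shallowest flower bud library. The second was 10 without shoots 1, 3 without shoots 2, 5 without flower buds 2 and 2 without flower buds 3. Of the 23, 17 belonged to 11 known families and 18 lay above the limit of 5 reads per shoot library in the mean. These features were chosen by the organ in which they were seen, so no test is given for them as a set. In the test of all features 19 of the 23 were included. Of these, 14 are among the 40 called higher, a share that their selection favours. Beside those of miR172, miR319, miR395, miR397 and miR858 described above, they include ath-miR169a-3p_L+2_1ss14CT at 128, 107 and 74.2 CPM (at least 3.27-fold) and fve-miR164a-3p_2ss11CA15CT at 76.04, 63.5 and 26.3 CPM (at least 1.75-fold). The highest feature without a known family was lcum-miR-38268_318-5p, a lentil feature of 21 nt, at 257, 109 and 64.7 CPM (at least 4.55-fold). Its flower bud mean was 143 CPM, or 86.8 without flower buds 1. Its call was lost without flower buds 2 or any 1 shoot library (adjusted p 0.0515 to 0.0778). The 1 shoot feature, lcum-miR-50241_211-3p of 19 nt, stood at 159, 67.1 and 77.3 CPM, at least 6.45-fold above 5 reads per flower bud library. It was called lower, but not without flower buds 2 or flower buds 3 (adjusted p 0.0612 and 0.0656).

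Of the 115 tested features without a known family, 7 were higher and 5 lower (10.4%, beside 22% of all features). Only 72 of the 115 were above 0 in any of the 6 libraries, and this difference in frequency was not tested. The most abundant of those that rose was lcum-miR-1238_15730-3p, at 619, 369 and 565 CPM in shoots 1 to 3 and 808, 2959 and 4663 CPM in flower buds 1 to 3 (2.44 ± 0.58, adjusted p = 0.00765), where flower buds 1 was the lowest of its group.

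Both arms of 39 precursors were tested. Both arms were higher in 4, both lower in 3, only 1 arm passed in 12 and neither in 19. With 1 of the 6 libraries left out, both were higher in 3 to 5 and both lower in 1 to 2. In the remaining precursor the listed arms were called in opposite directions, although not with any 1 library left out. There ath-miR164a of the 5′ arm was lower. The 3′ product fve-miR164a-3p_2ss11CA15CT was listed at 0 in shoots and between 26.3 and 76.04 CPM in flower buds, which spans the 44.2 CPM limit of shoots 1. Whether all reads of ath-miR164a come from this precursor was not tested, so a change of arm within it is not shown. Among 18 precursors with both arms above 0 in all 6 libraries, the ratio of the arms did not overlap between the organs in 10. The 5′ share was higher in flower buds in 5 of these and lower in 5 (exact two-sided permutation p = 0.1 each, the smallest possible, adjusted p = 0.18 over the 18). The hairpin of miR398, shown because both of its arms rose by more than those of any other precursor above 0 in all libraries, is given in the table as follows, with the arm sequences in capitals.
miR398 precursor: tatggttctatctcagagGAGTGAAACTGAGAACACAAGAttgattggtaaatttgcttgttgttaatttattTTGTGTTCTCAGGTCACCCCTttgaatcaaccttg
Of the reads of these arms, the 5′ arm held 44.7%, 52.9% and 49.05% in shoots 1 to 3 and 70.99%, 53.96% and 56.3% in flower buds 1 to 3. The hairpin of miR156, shown because both of its arms fell, is as follows.
miR156 precursor: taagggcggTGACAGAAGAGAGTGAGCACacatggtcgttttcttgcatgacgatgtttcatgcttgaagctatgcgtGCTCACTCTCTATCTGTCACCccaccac
Here the 5′ arm held 96.6%, 95.2% and 94.8% in shoots and 88.3%, 94.95% and 96.02% in flower buds, which overlapped. The 5′ arm of miR396 held 32.4%, 21.8% and 29.9% in shoots and 15.7%, 16.5% and 17.8% in flower buds, and that of mtr-miR166a 2.98%, 2.73% and 3.01% and 3.63%, 6.42% and 6.29%. The 5′ product mtr-miR171e-5p of the gma-miR171k-3p hairpin held 10.5%, 16.7% and 12.2% in shoots and 10.2%, 3.81% and 3.84% in flower buds, so flower buds 1 lay just below the lowest shoot library.

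**Figure D4:**
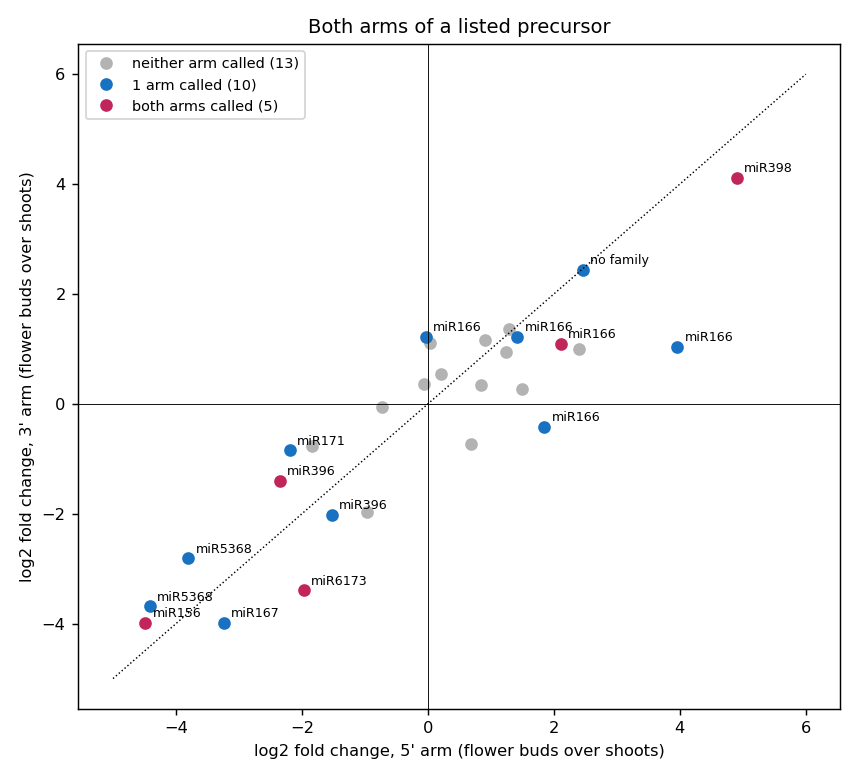
Log2 fold change (flower buds over shoots) of the 5′ arm (x axis) and the 3′ arm (y axis) of the 28 precursors whose arms were each above 0 in both organs, with the line of equal change. In 24 of the 28 the arms changed in the same direction, and miR398 and miR156 lie at the ends.

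Sequences of 21 nt held 70.7%, 75.7% and 75.3% of miRNA reads in shoots 1 to 3 and 76.8%, 83.8% and 86.1% in flower buds 1 to 3, or 73.9% ± 2.79 against 82.2% ± 4.83 (SD, n = 3). Those of 20 nt held 9.86% ± 2.12 in shoots and 4.83% ± 1.20 in flower buds. With entries of 1 sequence summed in place of joined, the 20 nt difference (flower buds minus shoots) was -9.03 percentage points against -5.04. Neither length class overlapped between the organs, and the exact two-sided permutation test gave p = 0.1 for both, the smallest it allows (adjusted p = 0.2 over 6 length classes). The 22 nt class stood at 8.55% ± 2.43 and 8.57% ± 4.86, with flower buds 1 highest at 14.2%, the library in which the 22 nt mtr-miR398a-5p_L-1R+1_1ss8CA was also highest. Of the 40 features called higher, 33 (82.5%) were of 21 nt, against 14 of the 31 called lower (45.2%) and 46.4% of all features tested.

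**Figure D5:**
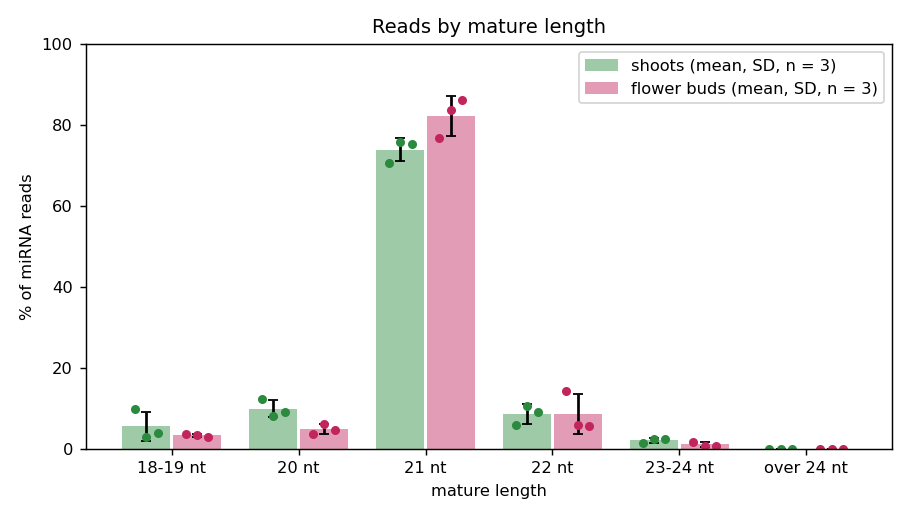
Share of miRNA reads (y axis, %) by mature length (x axis) in shoots and flower buds, with bars for the mean, error bars for the SD and points for the 3 libraries of each organ. The 21 nt class is at 70.7% to 75.7% in shoots and 76.8% to 86.1% in flower buds.

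The levels of both organs were set beside the other 5 organs of the series, as means with no further test. Shoots held the lowest miR398 of the aerial organs, at 3147 CPM against 35382 CPM in stem, 69056 CPM in flowers, 74129 CPM in flower buds, 99861 CPM in young pods and 204157 CPM in mature leaves. The means of miR2119, miR391 and miR399 were likewise lower in shoots than in each other aerial organ. miR391 stood at 11.2 CPM in shoots, 128 CPM in stem and 573 to 756 CPM in the other 4. For miR166 it was the flower buds that stood out, at 703175 CPM against 186489 to 332362 CPM elsewhere. miR156 in flower buds (28533 CPM) lay between flowers (13540.5 CPM) and young pods (31474 CPM), while shoots (122177 CPM) were exceeded by mature leaves only (181189 CPM). For miR172 both organs were below mature leaves (19852 CPM), stem (11123 CPM) and roots (8715 CPM).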

How the data were processed

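The authors deposited 1 table with 1642 mature miRNA entries. Its raw columns, per the file headers, hold expected counts (estimated reads per entry), and 25.8% of the values above 0 were not whole to a tolerance of 0.01. Its other columns, normalized per the file headers, hold a signal, which in each library equals the raw value times a constant factor of the authors. Neither the origin of that factor nor the trimming, aligner and build is stated in the labels or headers. Among 1146 entries that were whole throughout and shared their sequence with no other, 5 reads was the commonest nonzero value (786 of 3892) and 13 values were lower, so a 0 stands for fewer than about 5 reads. Bounds divide the mean of the organ where a feature was seen by the mean limit of 5 reads per library of the other. They allow for neither counting error nor spread between libraries. For miR397, miR858 and fve-miR164a-3p_2ss11CA15CT not every flower bud library lay above the 44.2 CPM limit of shoots 1.

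Counts were rounded to whole numbers, with a fraction of 0.5 rounded upward. Entries with the same sequence were joined to 1 feature by keeping the entry with the highest total. Among the resulting 1464, 610 had counts identical to another feature throughout. Families follow the number in the name, and miR157, miR165 and miR170 were merged into miR156, miR166 and miR171. Features were filtered with filterByExpr by organ, scaled by TMM and tested in R 4.3.3 with the quasi-likelihood F-test of edgeR 4.0.16 (limma 3.58.1), fitted to all 20 libraries by organ, as flower buds minus shoots. The test was tried on simulated counts first. For arms, 1 listed precursor of 24 nt, on which both sequences overlapped, was left out. Fold changes carry their standard error, and p-values were adjusted over all features or all families tested. Features listed at 0 in every library of an organ are given as bounds, not as fitted changes.

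The features named are the 8 largest changes in each direction among called features without overlap, above 0 in both organs and with a mean of at least 100 CPM in the higher one, the 4 highest of those seen in 1 organ only, the 6 most abundant, and members of the listed families. The members and lists were chosen with earlier results of these data known. Alternatives were DESeq2 1.42.0 (size factors and Wald test), library size alone, the authors' factors, TMMwsp, a fraction of 0.5 rounded to the even number, other filters, the 6 libraries alone, summed entries, and each library left out. Python 3.11.15, pandas 2.3.3, scipy 1.17.1 and matplotlib 3.10.9 were used for shares and plots.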

Additional observations from a re-analysis of the deposited data

Results flagged for a closer look

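The difference between flower buds and shoots was set against that between flowers (2 libraries) and mature leaves (3 libraries), a second reproductive and vegetative pair that shares no library with the first. The difference of the differences, on the log2 scale, was tested in the same fit, and 18 of 54 families (33.3%) and 44 of 323 features (13.6%) passed, of which 37 features (11.5%) had a value in each of the 4 organs. These counts rest on few flower libraries: without either of them 9 families passed, and miR156, miR162, miR166, miR399, miR530, miR2119, miR5232, miR5559 and miR5770 did not.

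The largest differences among families were those of miR2119 and miR398. The excess of flower buds over shoots, relative to flowers over mature leaves, was 6.12 ± 0.997 for miR398, 6.49 ± 1.54 for its 5′ arm mtr-miR398a-5p_L-1R+1_1ss8CA, 5.65 ± 0.85 and 5.46 ± 1.44 for its 3′ forms ath-miR398a-3p_L+1R-1 and ath-miR398a-3p_R-1, and 6.41 ± 1.71 for miR2119 (6.43 ± 1.83 for its feature mtr-miR2119_1ss13GC). In the second pair miR398 lay the other way, at 381062, 120766 and 110642 CPM in mature leaves against 97030.1 and 41081 CPM in flowers. There miR2119 overlapped, at 3245, 632 and 537 CPM in mature leaves against 684 and 488 CPM in flowers, and its difference was 4.61 without mature leaves 1. Other positive differences of families and named features were 5.65 ± 1.30 for miR391, 5.68 ± 1.28 for its feature gma-miR391-5p_R-1_1ss20TC, 4.66 ± 1.27 for miR399, 4.59 ± 1.23 for miR5559, 3.03 ± 0.80 for miR5770, 4.25 ± 1.25 for miR530, 3.89 ± 1.08 for ath-miR160a-3p_2ss6TC21AG, 3.75 ± 0.63 for miR172, 2.28 ± 0.80 for miR162, 2.15 ± 0.55 for miR5232, 2.14 ± 0.62 for ath-miR166a-3p_L+2R-2_1, 1.64 ± 0.59 for miR156 and 1.45 ± 0.50 for miR166. miR172 rose from shoots to flower buds but stood at 23748, 20881 and 14925 CPM in mature leaves against 3064 and 3677 CPM in flowers. miR156 was lower in the reproductive organ of both pairs, and by more between mature leaves and flowers. That difference was 0.50 and did not pass without mature leaves 1, at 328109 CPM against 112997 and 102460 CPM in mature leaves 2 and 3. Without that library the differences of miR162 (0.80) and miR166 (0.81) did not pass either. Those of miR156 and miR166 were also lost without flower buds 2 or flower buds 3, and that of miR162 without any 1 flower bud library. Leaving out shoots 1 lost those of miR156, miR162 and miR166 as well, and leaving out shoots 2 lost those of miR156 and miR162.

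Negative differences of families and named features were -3.75 ± 0.99 for miR8176, -3.68 ± 0.61 for miR4414, -3.60 ± 0.84 for miR3630, -2.33 ± 0.59 for miR5083, -3.02 ± 0.69 for gma-miR319f_1ss17TC, -2.52 ± 0.58 for miR319, -2.37 ± 0.47 for miR164 and -2.36 ± 0.44 for ath-miR164a. miR164 was lower in flower buds than in shoots but stood at 22436, 19843 and 17180.4 CPM in mature leaves against 48993 and 52506 CPM in flowers. Flowers and mature leaves differ from flower buds and shoots in age as well as in organ, and these cannot be told apart here.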

How the results depend on the processing

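No called change of a named feature or family turned its direction under any alternative, while the small changes of miR168, miR1511 and miR4414, which did not pass, changed sign between scalings. With the authors' factors 61 features were higher and 17 lower, against 40 and 31. Leaving out single libraries gave 38 to 76 called features (23 to 53 higher, 15 to 23 lower), 19 to 28 called families (12 to 19 higher, 7 to 9 lower), 16 to 49 features (44 with all libraries) and 9 to 19 families whose difference of differences passed, 25 to 67 features seen in flower buds only and 1 to 10 in shoots only. The fewest called features came without shoots 3 (38, of which 23 higher and 15 lower) and the fewest differences of differences without flowers 1 (17 features) or flowers 2 (16), with 23 without mature leaves 1 and 26 without flower buds 2. With entries of 1 sequence summed, the difference in the 20 nt share (flower buds minus shoots) was -9.03 percentage points against -5.04. Under the other settings 679 of 745 values of named features and families stayed on their side of the threshold, 40 fell back across it and 26 came to pass. Where a call was lost, the cause was not tested.

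Rounding a fraction of 0.5 to the even number, chosen after seeing the data, changed the scaling factor of flower buds 2 from 0.818 to 0.533 and gave 57 higher and 21 lower features, and TMMwsp, also added later, gave 44 and 33. Replicate numbers were shared between the organs, but same-numbered libraries did not deviate together (correlations 0.03, -0.10 and 0.06). The replicate block gave 54 called features (29 higher, 25 lower), 50 of them among the 71, and 24 families. Depth limits rare miRNAs most in shoots, where 5 reads equalled up to 44.2 CPM.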
